A study of Arabidopsis thaliana with 12 samples.

Results

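The comparison described here sets wild-type Arabidopsis seedlings kept at 4 °C for 12 h against wild-type seedlings at 0 h of cold. Its members were chosen from the labels alone: 2 arrays at 12 h and 2 arrays at 0 h, which are 4 of the 12 arrays of the study. All 22746 probe sets of the Affymetrix ATH1 array other than the spike-in and housekeeping controls were tested. A probe set is a group of short oligonucleotides on the array that together read 1 transcript or several related ones. The study chilled 2 genotypes, the wild type and the rcf1-1 mutant, for 0, 12 and 24 h, and the design text calls the 2 arrays of each group biological replicates.

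The wild type is Columbia carrying the gl1 mutation and a CBF2::LUC transgene, in which the promoter of a cold-response regulator drives luciferase. Both wild-type groups carry gl1 and the transgene, so neither sets them apart. Whole seedlings were taken at 14 days of age, after growth on sucrose-containing agar at 21 °C under 16 h of light and 8 h of dark. The chilled group differs from the 0 h group by 12 h at 4 °C. The labels give no group held at 21 °C for the same 12 h and no clock time of harvest, so cold and time of day cannot be told apart in any value below. RNA came from whole seedlings, so fewer cells of a type and less RNA per cell cannot be told apart either.

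In the cold, plants switch on a large set of protective genes within hours. The CBF transcription factors bind the promoters of COR (cold-regulated) genes, whose products include dehydrins, other hydrophilic proteins that stabilise membranes and proteins, and enzymes that build up sugars. At the same time growth slows, photosynthesis is adjusted, and the circadian clock is perturbed. CBF1, CBF2, CBF3, RD29A, KIN1, ICE1 and RCF1 itself were not paired with a probe set in the annotation used and are not analysed here.

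Values are log2 expression levels, so that a difference of 1 is a change by a factor of 2. The array medians of the 4 wild-type arrays lay between 4.11 and 4.18. Across probe sets, the 2 arrays of a group had a correlation of 0.993 at 12 h and 0.989 at 0 h, as a description. The 5′ minus 3′ log2 difference of the GAPDH control, which falls when RNA is degraded, was -0.90 and -1.06 on the 12 h arrays, against -0.82 and -0.85 on the 0 h arrays. The replicate 2 arrays at 24 h, which entered the estimate of the spread, were far from all others in this measure, with -5.13 for wild type and -4.45 for rcf1-1. Of the tested probe sets, 13513 were paired with exactly 1 gene, and those alone are named. A gene is given by its symbol in the RefSeq gene table, or by its locus number where that table holds no other symbol.

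After 12 h of cold, 1377 probe sets (6.05%) were higher and 1347 (5.92%) were lower than at 0 h, together 12.0% of those tested. A probe set was called at a Benjamini-Hochberg adjusted p under 0.05 in limma, over all probe sets. The numbers of increases and decreases were close, but the increases were larger. The increase was at least 2 on the log2 scale for 442 probe sets, at least 3 for 188 and at least 4 for 76. The decrease reached those sizes for 208, 37 and 10. The median called difference was 1.52 among the higher and -1.22 among the lower probe sets, and the median over all tested probe sets was -0.01. The higher probe sets had a median level of 6.94 at 12 h, against 4.94 at 0 h, where the median of all tested probe sets was 4.18. The lower ones had a median of 4.73 at 12 h, against 6.20 at 0 h. In all 2724 called probe sets both arrays of one time lay beyond both of the other, which held in one direction for 27.9% and in the other for 31.2% of all tested probe sets. The count depends on which arrays estimate the spread: with the 0 h and 12 h arrays of both genotypes alone, 2891 were higher and 3619 were lower, and these held all 2724. With a tested minimum change of 2-fold, 356 were higher and 155 were lower.

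**Figure D1:**
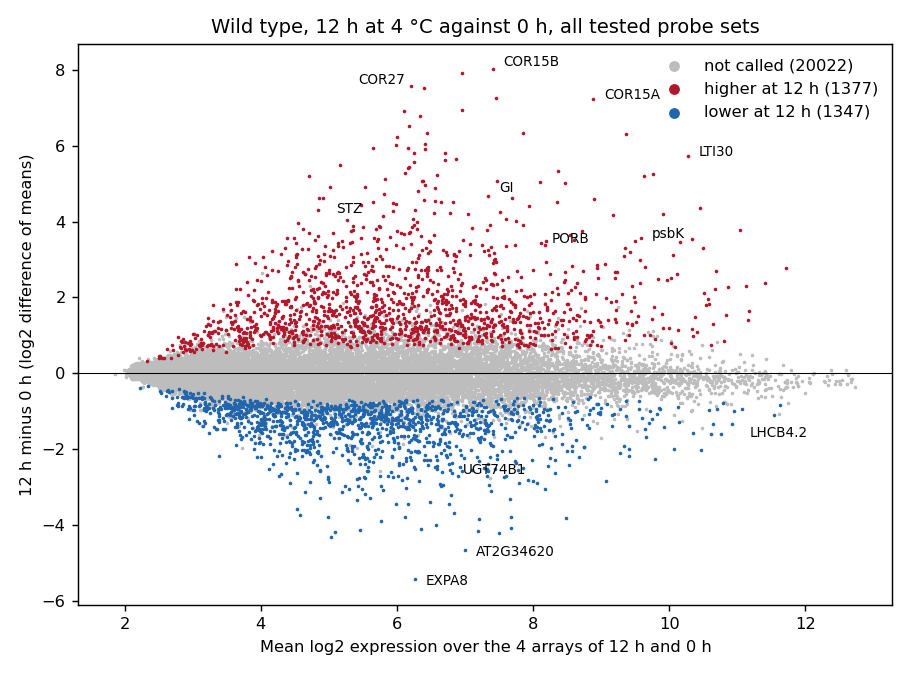
The log2 difference between 12 h and 0 h in wild type is plotted against the mean log2 level over the 4 arrays, with 1 point for each of the 22746 tested probe sets. The 1377 red points are higher and the 1347 blue points are lower at 12 h at an adjusted p under 0.05. Increases extend to 8.00 on the log2 scale and decreases to -5.42.

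The COR and dehydrin genes formed the group with the highest median among the lists with a paired gene. All 8 of its members that were paired with a probe set, out of 23 on the list, were higher at 12 h, with a median log2 difference of 5.61. Of all 13355 named genes, 5.61% were called higher and 5.24% lower, which is the background for each group count below. COR15A and COR15B encode small chloroplast proteins that protect membranes during freezing. COR15B read 11.43 and 11.39 on the 12 h arrays, against 3.5 and 3.31 on the 0 h arrays. COR15A read 12.53 and 12.48 at 12 h, against 5.38 and 5.15 at 0 h. The 2 genes lie next to each other, and AT2G42520, the neighbour of COR15B on the other side, was also higher, by 1.85.

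Among the dehydrins, COR47 read 12.88 and 12.96 at 12 h, against 9.15 and 9.14 at 0 h. LTI30, another dehydrin, read 13.26 and 13.03 at 12 h, against 7.52 and 7.31 at 0 h. The 12 h readings of both lie close to the highest value on any array, 13.38, where a probe set has little room left to rise. LTI30 changed by 5.73 ± 0.30 (SE, adjusted p = 1.06e-06 in limma).

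The other members differed in size and precision. LEA4-5, a late embryogenesis abundant protein of the same protective class, read 8.79 and 9.52 at 12 h, against 4.47 and 5.42 at 0 h. Its difference had the large standard error of 0.72 in the fit on all 12 arrays. The 24 h arrays enter that error, and LEA4-5 read 7.36 and 5.30 on those of wild type. TIL, the temperature-induced lipocalin, changed least within the list, by 2.11 ± 0.26 (SE, adjusted p = 0.000359), with readings of 11.62 and 11.52 at 12 h, against 9.41 and 9.51 at 0 h. The chloroplast lipocalin CHL, which was noticed after its values were seen, rose by a like amount of 2.36. COR27, a cold-induced regulator that also feeds into the clock, read 9.99 and 10.31 at 12 h, against 2.63 and 2.65 at 0 h. AT4G33980, on the same list, read 7.88 and 7.94 at 12 h, against 2.2 and 2.66 at 0 h.

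The 20 largest increases among single-gene probe sets were between 5.44 and 8.00 on the log2 scale, or 43.5-fold to 257-fold, with adjusted p-values between 3.3e-09 and 2.36e-05. Only 4 of the 20 have a symbol in the gene table (COR15B, COR27, COR15A and LTI30). In 16 of them the 0 h mean lay under 4.03, the lowest median of any array, and the fold is then a lower bound. AT5G62360 read 10.95 and 10.89 at 12 h, against 3.07 and 2.94 at 0 h, and was at least 241-fold higher. AT1G51090 read 10.09 and 9.89 at 12 h, against 2.39 and 2.47 at 0 h, and was at least 189-fold higher. Among the genes without a symbol, next came AT1G16850 at 6.93, AT2G23910 at 6.92, AT1G56300 at 6.79 and AT4G16146 at 6.52. AT4G30650, at 6.32, started higher, with 11.05 and 10.98 at 12 h, against 4.50 and 4.89 at 0 h. The remaining increases, in AT1G11210, AT1G64890, AT4G34950, AT1G53035, AT1G68500, AT1G20030, AT4G36010 and AT2G22590, ran between 6.01 and 5.44.

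**Figure D2:**
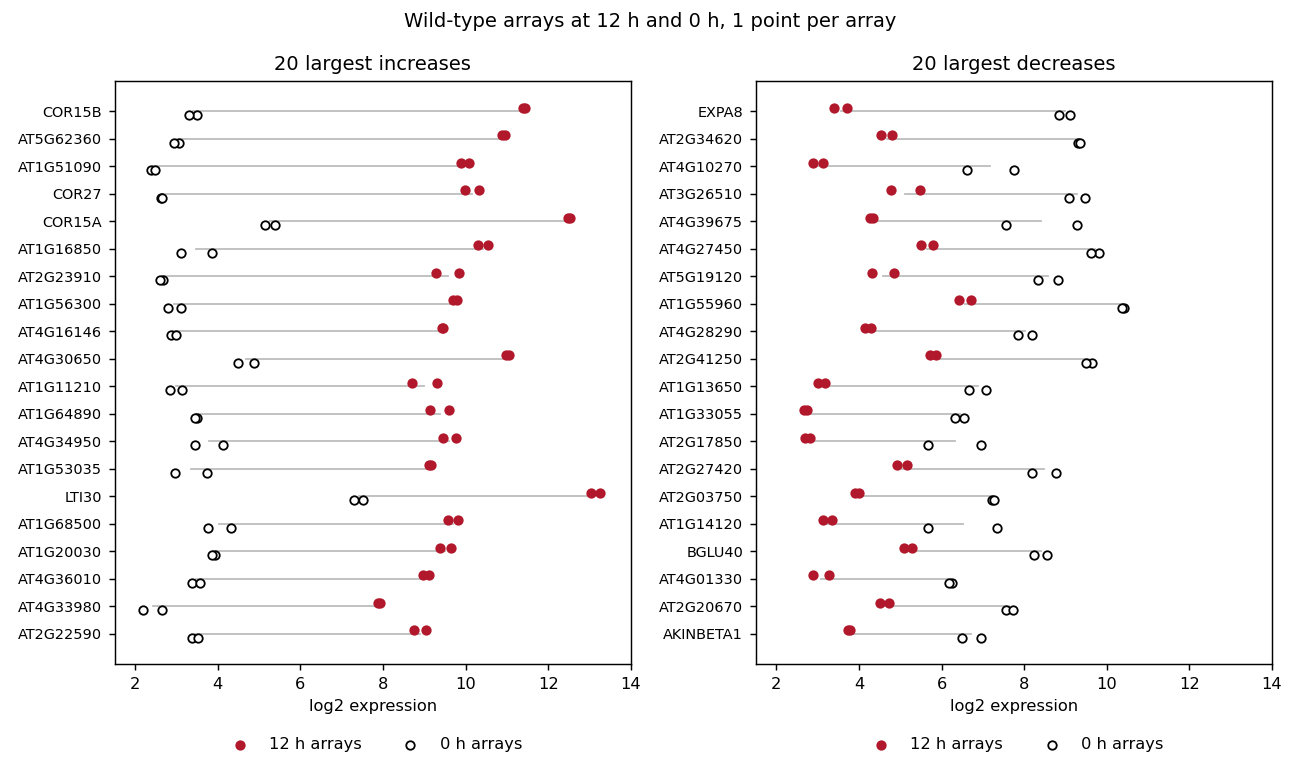
Log2 expression on each wild-type array is shown for the 20 largest increases (left) and the 20 largest decreases (right) among single-gene probe sets. Filled points are the 2 arrays at 12 h, open points the 2 arrays at 0 h, and grey lines join the means. The groups lie apart for every gene, at 7.88 to 13.26 at 12 h, against 2.2 to 7.52 at 0 h, for the increases, and at 2.68 to 6.72 at 12 h, against 5.67 to 10.42 at 0 h, for the decreases.

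Regulators of the cold response and of the clock were sparsely covered, with 2 of 23 and 3 of 31 genes paired. STZ, a zinc finger repressor induced by several stresses, read 7.89 and 7.84 at 12 h, against 3.39 and 4.06 at 0 h, a change of 4.14 ± 0.29 (SE, adjusted p = 8.83e-06). The other paired CBF regulator, SIZ1, differed by 0.01 and was not called. GI, a clock component that times flowering, read 9.76 and 9.60 at 12 h, against 4.76 and 5.24 at 0 h. It was 25.5-fold higher (adjusted p = 3.87e-06), and AT5G52660, the second called clock gene of 3 paired, rose by 1.33. TIC, which helps to maintain the rhythm, read 8.23 and 7.93 at 12 h, against 7.14 and 7.48 at 0 h, and did not pass the test (adjusted p = 0.39). HYH, a light-signalling bZIP factor named after its values were seen, rose by 1.61.

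Genes of the flavonoid pathway were called in both directions. CHIL, a chalcone isomerase-like protein at the entry of the pathway, rose by 1.51, and UGT78D2, which attaches glucose to flavonols and anthocyanidins, rose by 3.09. UGT78D2 read 10.81 and 10.96 at 12 h, against 7.91 and 7.67 at 0 h. DFR, dihydroflavonol reductase of the anthocyanin branch, fell by 1.80 on the log2 scale, to 4.74 and 5.2 at 12 h, against 6.35 and 7.20 at 0 h. The other 3 paired members were not called, so 2 of 6 rose and 1 fell, with a median of -0.02.

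UDP-glycosyltransferases, which attach sugars to flavonoids, hormones and sterols, were collected from the annotation after the values were seen. Of 47 with a UGT symbol and a probe set, 9 rose (19.1%) and 3 fell (6.38%), against 5.61% and 5.24% of all named genes. The median of the 47 was 0.17. Genes given only by a locus number, such as AT5G17040, are outside this count. UGT73C1, which can glucosylate cytokinins, read 7.76 and 8.20 at 12 h, against 2.96 and 3.19 at 0 h. UGT78D3, a flavonol arabinosyltransferase, read 7.65 and 7.72 at 12 h, against 3.1 and 3.42 at 0 h. The hydroxycinnamate glucosyltransferases UGT84A1 and UGT84A3 rose by 3.62 and 3.49.

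The sterol glucosyltransferase UGT80B1 rose by 2.84, and UGT72B3, UGT73B1 and UGT76E11 rose by 2.45, 2.05 and 1.90. UGT74B1, which adds the glucose of glucosinolates, fell by 2.36 on the log2 scale, to 5.61 and 5.64 at 12 h, against 7.91 and 8.06 at 0 h. With it on the glucosinolate list, AT2G31790 fell by 1.28, and BCAT4, which opens the chain elongation of methionine-derived glucosinolates, differed by -0.51 and was not called. UGT71C1 and UGT88A1 fell by 1.19 and 1.1, with UGT71C1 under 4.03 on both 12 h arrays. In the glutathione transferase subfamily GSTU, whose members detoxify reactive compounds, GSTU25 and GSTU22 rose by 2.95 and 1.65, and GSTU18 fell by 1.78. Thus 2 of 11 with a probe set were higher and 1 was lower, against 5.61% and 5.24% of all named genes.

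Adjacent members of such families changed together in several places. UGT78D3, AT5G17040 and UGT78D2 are consecutive genes and rose by 4.43, 1.70 and 3.09. UGT84A1 and UGT84A3 are neighbours, as are EXLA3 and EXLA1. Among 5845 pairs of neighbouring genes that both had a probe set, 38 pairs (0.65%) were both higher, 27 (0.462%) were both lower and 43 were called in opposite directions. Whether neighbours changed together more often than other pairs of genes was not tested. Further pairs held strongly raised genes: AT1G76580 and AT1G76590 rose by 3.49 and 5.27, and AT5G62350 rose by 3.11 beside AT5G62360. Neighbours from 1 family can share probe sequence, which was not checked here.

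Genes of starch and sugar handling gave single calls. PWD, phosphoglucan water dikinase of starch breakdown, read 7.97 and 8.26 at 12 h, against 6.36 and 6.28 at 0 h, and was the 1 gene called of 6 paired on the starch and sucrose list (adjusted p = 0.0161). The remaining 5, among them the starch branching enzyme SBE2.2 at -0.44 and the disproportionating enzyme DPE1 at 0.56, were not called. Among 14 SWEET sugar transporters, a family formed after the values were seen, SWEET4, SWEET13 and SWEET1 rose by 2.67, 1.62 and 0.96, or 21.4% against 5.61% of all named genes. SWEET16, which moves sugars across the vacuole membrane, fell by 1.23 on the log2 scale, to readings under 4.03 on both 12 h arrays. TMT2, which loads sugars into the vacuole, rose by 1.66. AKINBETA1, a beta subunit of the energy-sensing SnRK1 kinase, was among the 20 largest decreases, at 3.77 and 3.74 at 12 h, against 6.48 and 6.96 at 0 h.

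Of 13 paired nuclear photosynthesis genes, 1 was called lower (7.69%, against 5.24% of all named genes) and none higher. All 13 differences were below 0, with a median of -0.34. The called gene was LHCB4.2, a minor antenna protein of photosystem II. It read 10.97 and 11.03 at 12 h, against 12.06 and 12.13 at 0 h (adjusted p = 0.0178). The others ran from PSB27, a photosystem II assembly factor, at -0.74 to PSBW and PSAN, small photosystem subunits, at -0.17. In the fit on the 0 h and 12 h arrays alone, 10 of the 13 were called lower, against 3619 of all 22746 probe sets in that fit. PORB, the light-dependent protochlorophyllide oxidoreductase, went the other way and read 9.90 and 9.76 at 12 h, against 6.29 and 6.5 at 0 h. It was 10.8-fold higher (adjusted p = 9.01e-06), while the other 4 paired genes of chlorophyll synthesis (CHLI2, CHLM, GSA1 and HEMB1) were not called.

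Of 69 chloroplast-encoded genes, 4 were higher (5.8%) and 1 was lower (1.45%), with a median of -0.08. The share called higher is near the 5.61% of all named genes, so the count is no result about the group and the single genes are given. psbK and psbI, small subunits of photosystem II, rose by 3.56 and 3.19. psbK read 11.39 and 11.33 at 12 h, against 7.82 and 7.80 at 0 h. psbI read 11.18 and 10.87 at 12 h, against 8.05 and 7.62 at 0 h. These readings lie far above the floor on all 4 arrays, unlike petG, a subunit of the cytochrome b6f complex, at 5.73 and 5.39 at 12 h, against 2.73 and 2.25 at 0 h. The ribosomal protein gene rps16 rose by 2.04, and petL, another cytochrome b6f subunit, fell by 0.85 on the log2 scale. The large photosystem core genes psaB and psbD differed by -0.29 and -0.64 and were not called. How the chloroplast transcripts, which largely lack long poly(A) tails, were primed for labelling is not given in the sources used here.

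Genes of cell wall loosening and growth were among the named decreases. On the list of expansins, xyloglucan-modifying enzymes and cellulose synthases, 5 of 10 paired members fell, against 5.24% of all named genes, none rose, and the median was -1.01. Expansins loosen the wall so that cells can extend. EXPA8 showed the largest decrease of all single-gene probe sets, with 3.71 and 3.40 at 12 h, against 9.11 and 8.85 at 0 h, at least 42.9-fold. EXPB1, EXPA4 and EXPB3 fell by 2.1, 2.06 and 1.84 on the log2 scale, and XTH16, a xyloglucan endotransglucosylase, fell by 1.26. EXPB1 and XTH16 read under 4.03, the lowest array median, on both 12 h arrays. In the fit on all 12 arrays EXPA4 had the largest SE of the 5 that fell, 0.57 (adjusted p = 0.0383 in limma). That SE also draws on the 24 h arrays, where EXPA4 read 5.49 and 3.98 in wild type. With the 0 h and 12 h arrays alone, its adjusted p in limma was 5.74e-06, and the largest of the 5 was 0.00171, for XTH16.

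Other wall genes were called in both directions. Of the expansin-like A genes, outside that list and named after their values were seen, EXLA1 read 7.09 and 6.84 at 12 h, against 4.13 and 3.95 at 0 h. EXLA2 and EXLA3 also rose, by 2.80 and 0.94, and so did XTH20, by 2.21. EXLA3 read under 4.03, the lowest array median, on every array of both times. In the TBL family, which acetylates wall polysaccharides, TBL25, TBL36, TBL26, TBL35 and TBL37 fell by between 2.57 and 1.12. They are 22.7% of the 22 with a probe set, against 5.24% of all named genes, and none rose. The TBL genes were grouped after their values were seen. The endoglucanases GH9B13 and GH9B8 fell by 2.42 and 1.62, and the cellulose synthase-like genes CSLA03 and CSLC04 fell by 1.57 and 1.29. GH9B13 and CSLA03 read under 4.03 on both 12 h arrays. SKU5 and EXO, which promote directional and cell growth, fell by 1.64 and 1.5. Of the related receptor kinases that monitor wall integrity and growth, THE1 fell by 1.45, and FER rose by 1.12 with readings of 8.43 and 7.94 at 12 h, against 6.85 and 7.27 at 0 h.

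Among the 20 largest decreases, which ran between -5.42 and -2.97, only EXPA8, BGLU40 and AKINBETA1 have a symbol. AT2G34620 read 4.81 and 4.53 at 12 h, against 9.29 and 9.36 at 0 h. AT1G55960 fell as well, with 6.72 and 6.43 at 12 h, against 10.42 and 10.36 at 0 h. In 9 of the 20 the 12 h mean lay under 4.03, among them AT4G10270, AT1G13650, AT1G33055 and AT2G17850. Replicates spread most in AT4G39675, which read 4.27 and 4.34 at 12 h, against 9.27 and 7.55 at 0 h. BGLU40, a beta-glucosidase, read 5.08 and 5.28 at 12 h, against 8.56 and 8.23 at 0 h. In its family of 20, BGLU16 and the lignin-precursor glucosidases BGLU45 and BGLU46 also fell, as did BGLU47, while BGLU25 and BGLU42 rose by 2.27 and 1.11. BGLU45 and BGLU47 read under 4.03 on every array of both times, and BGLU46 did so on both 12 h arrays.

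Hormone genes gave few calls. WES1, a GH3 enzyme that conjugates auxin to amino acids, read 4.40 and 3.90 at 12 h, against 6.21 and 6.64 at 0 h (adjusted p = 0.000144), and was the 1 called of 4 paired auxin genes. GH3.17, a related enzyme named after its values were seen, fell by 2.06. The gibberellin receptors GID1A, GID1B and GID1C all differed upwards, by 1.3, 2.04 and 0.74, and GID1B passed the test (adjusted p = 0.00522). It read 6.51 and 6.27 at 12 h, against 4.09 and 4.61 at 0 h. SAMDC, S-adenosylmethionine decarboxylase of polyamine synthesis, fell by 0.98, and its list mate AT5G15950 by 0.75. The jasmonate list had 0 of 3 members called, and the cytokinin response list 0 of 2.

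All 12 paired ribosome biogenesis genes had a difference above 0, with a median of 0.71, and 3 (25.0%) were called higher, against 5.61% of all named genes. AT3G15460 read 6.55 and 6.47 at 12 h, against 5.21 and 4.69 at 0 h. PRH75, a nucleolar RNA helicase, rose by 1.01 and AT5G15550 by 0.93. In the fit on the 0 h and 12 h arrays alone, 7 of the 12 were called higher, against 2891 of all 22746 probe sets in that fit. YAO, a nucleolar protein outside the list and picked once its value was known, rose by 1.47. The RNA polymerase I subunits NRPA1 and NRPA2 both differed by 0.23 and were not called.

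Further genes were picked from the annotation after their values were seen. CCT2, which makes an activated precursor of the membrane lipid phosphatidylcholine, read 8.93 and 9.12 at 12 h, against 5.70 and 4.69 at 0 h. The protease inhibitor SERPIN1 rose by 3.75 ± 0.16 (SE), with 10.56 and 10.62 at 12 h, against 6.81 and 6.87 at 0 h. The defensin-like genes PDF2.1 and LCR69 rose by 4.58 and 3.46. They are 13.3% of 15 genes with a numbered PDF or LCR symbol and a probe set, against 5.61% of all named genes. These 15 were grouped by symbol and include PDF1A and PDF1B, which are not defensins. PDC2, a pyruvate decarboxylase of fermentation, rose by 3.32 and the vacuolar processing protease BETA-VPE by 2.92.

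Mitochondrial and trafficking genes followed. The succinate dehydrogenase subunits SDH2-1 and SDH1-1 rose by 1.55 and 1.38, and CYTC-2, a cytochrome c, by 1.1. MCCA and MCCB, the subunits of methylcrotonyl-CoA carboxylase of leucine breakdown, were lower by 1.4 and 1.28. VPS20.1, VPS46.2 and VPS2.1, components of the endosomal ESCRT-III machinery, rose by 1.51, 1.19 and 0.96. Of 10 genes with a VPS symbol and a probe set, 4 were called higher (40.0%), against 5.61% of all named genes, and none lower. Among genes of protein quality control in the endoplasmic reticulum, picked because they were called, DER2.1, ATERDJ3B, OS9 and DER1 fell by 1.33, 1.13, 0.94 and 0.81, while DER2.2 rose by 1.2. In the autophagy family ATG8, ATG8F and ATG8E fell by 1.36 and 1.16, and ATG8D rose by 0.86. Of 8 genes with an ATG symbol and a probe set, these are 25.0% lower and 12.5% higher, against 5.24% and 5.61% of all named genes.

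Cytoskeletal genes were called in both directions, with the beta-tubulins TUB9 and TUB5 higher by 2.08 and 1.74, and ACT11, an actin, lower by 1.79. TUB9 and TUB5 are 40.0% of 5 beta-tubulins with a probe set, against 5.61% of all named genes. ACT11 read under 4.03 on both 12 h arrays. SP1L3 and SP1L4, microtubule-associated proteins, fell by 1.71 and 1.52, and SP1L5 rose by 0.88. Markers of other cell types gave no call in roots (0 of 2 paired) or in the stomatal lineage (0 of 4). EXPA7 and EXPA18, root hair expansins, differed by 0.19 and -0.34. TRY, a repressor of trichome fate and the 1 paired trichome gene, fell by 1.3 on the log2 scale, in plants that carry gl1 at both times. TRY also read under 4.03 on both 12 h arrays. The heat shock list had 0 of 6 called.

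**Figure D3:**
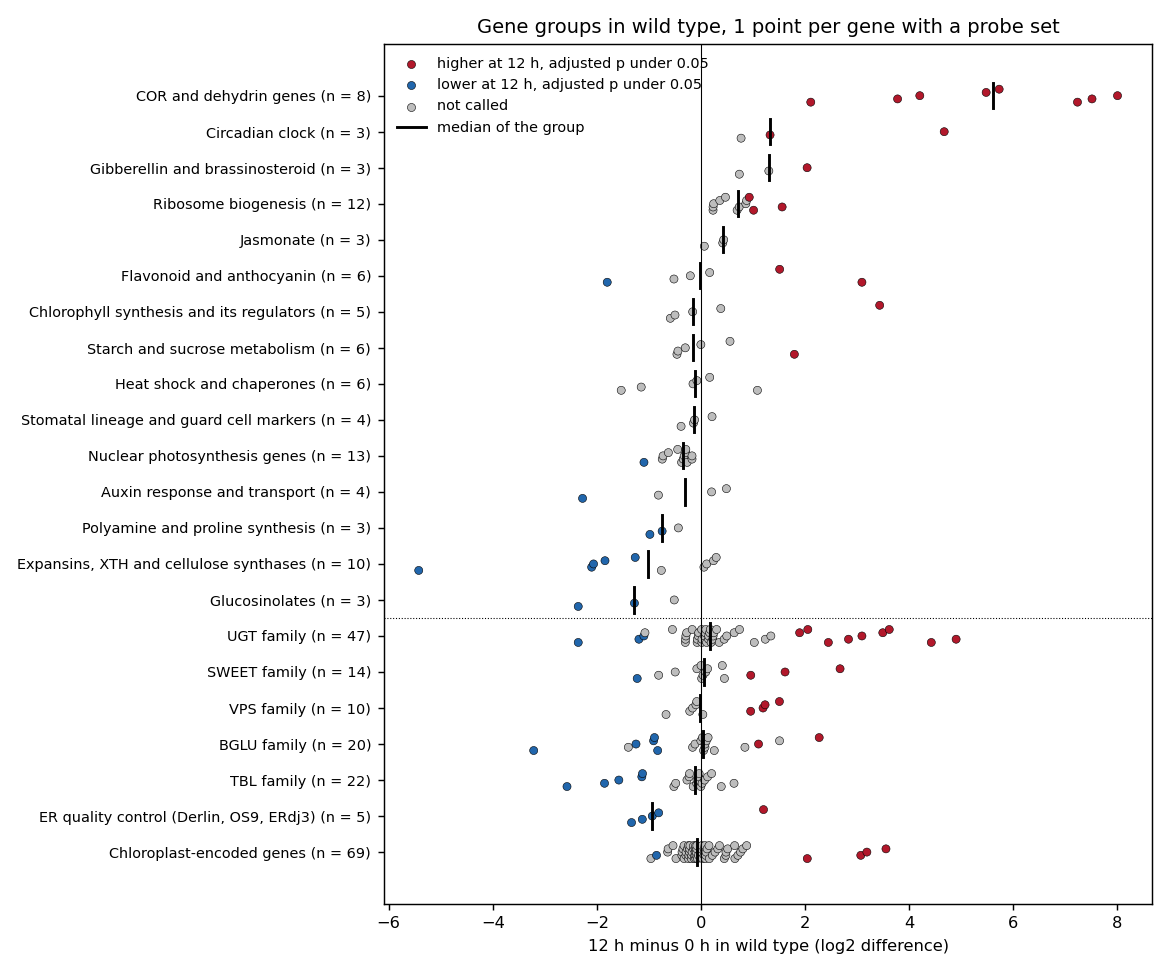
The log2 difference between 12 h and 0 h in wild type is shown for each gene with a probe set, by gene group. Red points rose and blue points fell at an adjusted p under 0.05, and vertical bars are group medians. Groups below the dotted line were formed from the annotation after the values were seen. The lists above it were chosen with earlier results of these data known. The COR and dehydrin genes have a median of 5.61 with all 8 red, and the expansin, XTH and cellulose synthase list has a median of -1.01.

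Of the 160 called single-gene probe sets named for wild type, 55 lost their call when 1 of the 4 wild-type arrays was left out, and 26 of these lost it with any of the 4. None of the 40 leading increases and decreases did. Among list members, omitting any 1 array ended the calls of LHCB4.2, PWD, PRH75, AT5G15550, EXPA4, SAMDC, AT5G15950 and TRY. For DFR, GID1B, EXPB3, XTH16, AT5G52660 and AT2G31790 some of the 4 omissions did so. Among genes named after their values were seen, any 1 omission ended the calls of ATERDJ3B, OS9, DER1, MCCB, SDH1-1, VPS2.1, ATG8E, ATG8D, FER, GH9B8, TBL35, SP1L3, SWEET16, UGT76E11, AT2G42520 and PDC2. Some omissions did so for DER2.2, SWEET1, rps16, petL, YAO, BGLU16, BGLU42, BGLU45, BGLU46, BGLU47, SP1L5, EXLA3, EXO, HYH, TMT2, UGT71C1, UGT88A1, TBL26, TBL37, CSLA03 and CYTC-2. PUB19 and WRKY47, named under the other observations, also lost their calls with any 1 omission, and WRKY6 and CYP71B24 with some. The largest change that lost its call was that of PDC2.

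The wild-type response was set against that of rcf1-1, measured on 4 other arrays at the same times. RCF1 is a DEAD-box RNA helicase required for cold tolerance. In rcf1-1, 1242 probe sets (5.46%) were higher and 1542 (6.78%) were lower at 12 h than at 0 h. Of the 1377 wild-type increases, 885 were also called higher in rcf1-1, 1327 had the same sign there and 3 were called lower. Of the 1347 wild-type decreases, 892 were also called lower, 1334 had the same sign and 1 was called higher. The median difference of those increases was 1.52 in wild type and 1.25 in rcf1-1, and that of the decreases was -1.22 in wild type and -1.12 in rcf1-1. These probe sets were chosen by their wild-type values, so the 2 medians are a description. All 20 leading increases and all 20 leading decreases were called in rcf1-1 as well.

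A test of the difference between the responses called 20 probe sets (0.0879%), 9 with the larger value in wild type (0.0396%) and 11 with the smaller (0.0484%). Single genes were paired with 11 of the 20. AT1G64890 was the 1 called gene among the 20 leading increases, at 5.90 in wild type and 3.94 in rcf1-1 (difference 1.96, adjusted p = 0.0484). AT4G01130 rose by 3.42 in wild type, to 6.15 and 6.32 at 12 h, against 2.99 and 2.63 at 0 h, and differed by 0.50 in rcf1-1 (adjusted p of the difference 0.0136). AT5G17460 rose by 3.23 in wild type and differed by 0.71 in rcf1-1. AT1G64890 and AT4G01130 lost the call of the difference whichever of the 8 compared arrays was left out, and AT5G17460 kept it with 1 of the 8 omissions. AT4G21870 did not pass the test in wild type, with 6.61 and 6.41 at 12 h, against 6.80 and 6.16 at 0 h, and fell by 2.95 in rcf1-1. Its call of the difference also held in 1 of the 8 such fits.

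In the other direction, AT2G32020 differed by 1.05 in wild type, without a call, and rose by 5.80 in rcf1-1. AT2G41730, read by a probe set marked as able to bind related transcripts, rose by 1.55 in wild type and 5.37 in rcf1-1. AT5G15950 fell by 0.75 in wild type and rose by 2.38 in rcf1-1, with the smallest adjusted p of the 11 genes for the difference, 0.00161. Its call held with each of the 8 arrays left out in turn, and those of AT2G32020 and AT2G41730 held in 7 of the 8 fits. The number of such calls rests on the estimate of the spread: 685 probe sets were called with the 0 h and 12 h arrays alone.

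**Figure D4:**
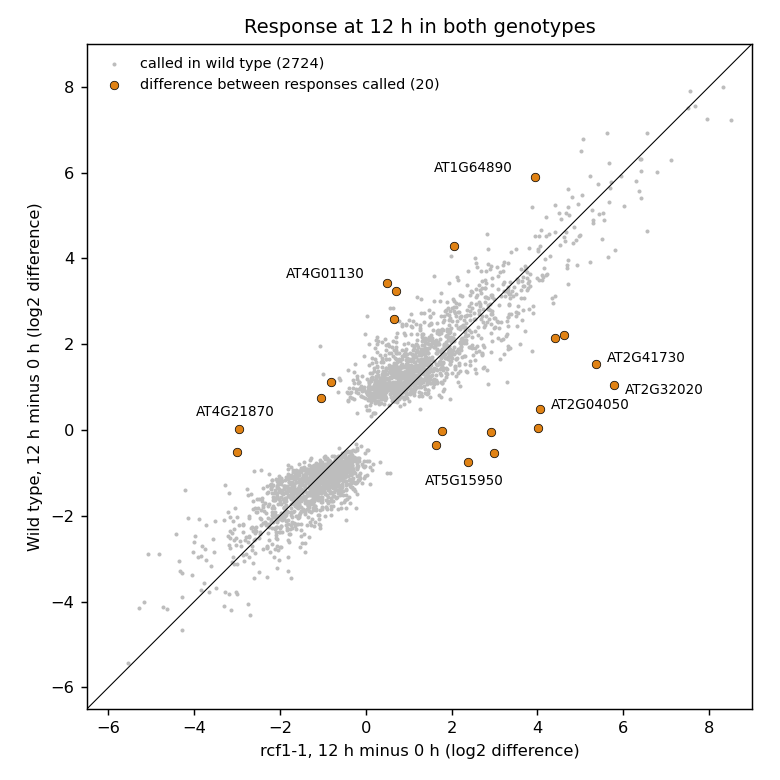
The log2 difference between 12 h and 0 h in wild type is plotted against that in rcf1-1 for the 2724 probe sets called in wild type (grey) and for the 20 whose responses differed between genotypes (orange). The line marks equal responses. Most grey points lie near it, and AT5G15950, at -0.75 in wild type and 2.38 in rcf1-1, lies in the quadrant of opposite signs.

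The wild-type levels at 24 h of cold place the 12 h values in the course of the treatment. The 24 h comparison shares its 0 h arrays with the 12 h one, and wild-type 24 h replicate 2 is one of the 2 arrays with the extreme GAPDH value, so the levels are given array by array with no test. COR15B read 11.28 and 11.10 at 24 h, against 11.43 and 11.39 at 12 h. AT4G30650 read 10.71 and 11.29 at 24 h, against 11.05 and 10.98 at 12 h. COR15A read 12.67 and 11.13 at 24 h, against 12.53 and 12.48 at 12 h, with the extreme array the lower one. Others had come down again: AT5G62360 read 6.32 and 5.58 at 24 h, against 10.95 and 10.89 at 12 h. AT4G33980 read 3.76 and 3.26 at 24 h, against 7.88 and 7.94 at 12 h. GI read 7.87 and 6.91 at 24 h, between its 0 h and 12 h readings. In all 20 leading increases both 24 h arrays still lay above both 0 h arrays, replicate 1 by 1.11 to 7.78 and replicate 2 by 0.45 to 7.60. These genes were chosen for their 12 h values. On each 24 h array 19 of the 20 lay below both 12 h arrays and 1 lay above both, COR15A on replicate 1 and AT4G30650 on replicate 2.

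All 20 leading decreases were still below 0 h on both 24 h arrays, and 7 on replicate 1 and 6 on replicate 2 were also below both 12 h arrays. AT1G14120, AT4G27450 and AT4G39675 were so on both. AT4G27450 read 3.45 and 3.88 at 24 h, against 5.79 and 5.50 at 12 h. AT2G41250 had partly returned, with 9.64 and 9.5 at 0 h, 5.71 and 5.86 at 12 h, and 8.09 and 7.36 at 24 h. LHCB4.2 read 9.90 and 9.26 at 24 h, below its 12 h readings. AT5G15950, slightly lower at 12 h, read 10.98 and 10.55 at 24 h, above both earlier times.

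**Figure D5:**
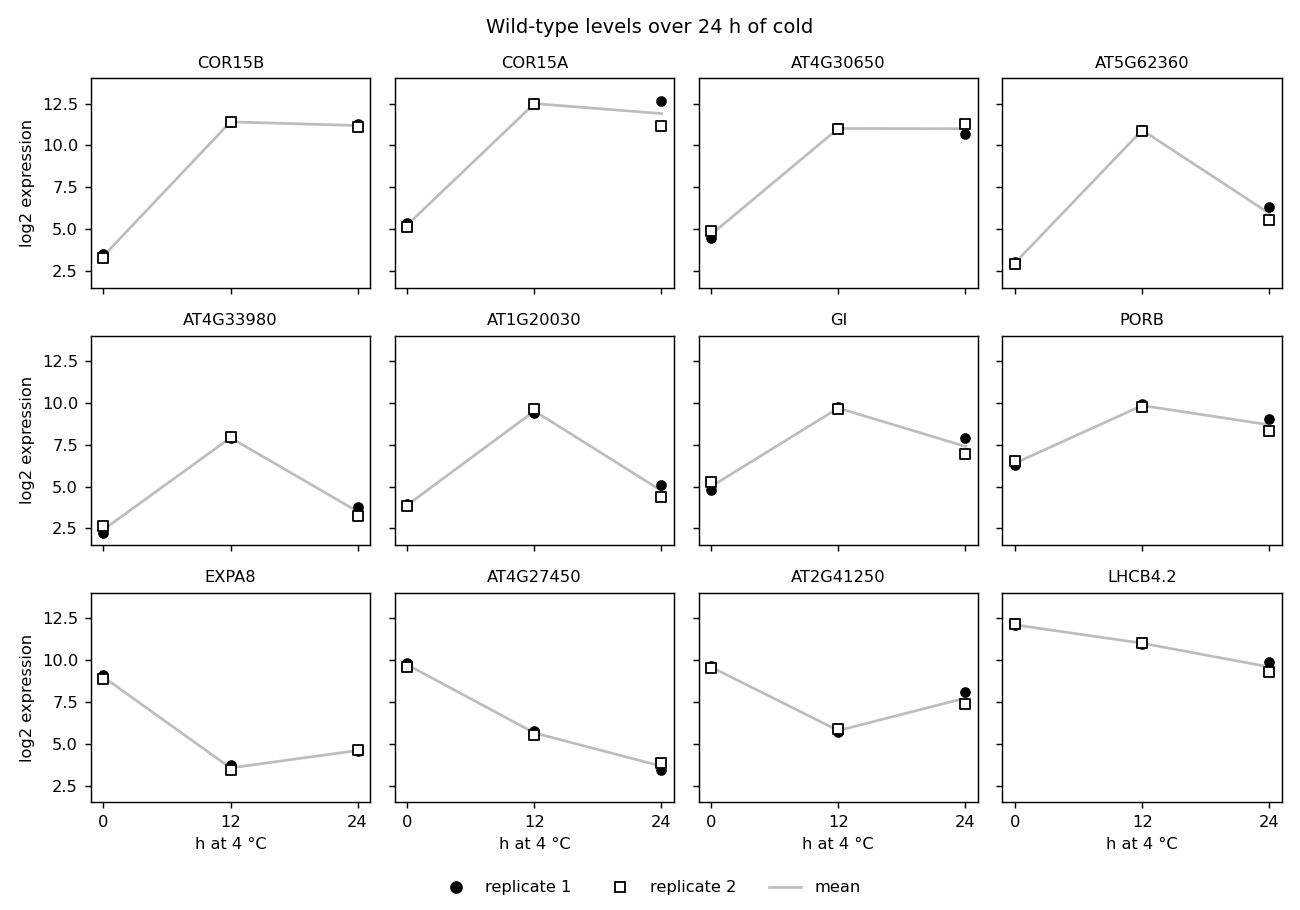
Log2 expression on each wild-type array is shown at 0, 12 and 24 h of cold for 12 named genes, with replicate 1 as filled circles, replicate 2 as open squares and the mean as a line. COR15B and AT4G30650 stayed near their 12 h level, AT5G62360 and AT4G33980 came back down by 24 h, and AT4G27450 and LHCB4.2 were lower at 24 h than at 12 h. The 24 h replicate 2 array is one of the 2 with the extreme GAPDH value.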

How the data were processed

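The deposited values are log2 expression levels, 1 per probe set and array, and the submitters' processing notes name RMA as how the authors made them. The sources used here do not give its software, which arrays were normalized together, or the harvest times. The table holds 22810 probe sets, of which 64 controls were left out. The array annotation paired 13513 probe sets with 1 gene, 503 with several and 8730 with none, and symbols came from the RefSeq table of TAIR10.1, in which 13436 of the single-gene probe sets matched.

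A mean per group was fitted to all 12 arrays with limma 3.58.1 in R 4.3.3 (6 residual degrees of freedom), followed by eBayes with the variance trend switched on, which gave 4.7 prior degrees of freedom. Two-sided p-values were adjusted after Benjamini and Hochberg across the 22746 probe sets of each contrast. Errors are limma's standard errors. The contrasts were 12 h against 0 h in each genotype and their difference. The number of arrays limits the precision.

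The text names the 20 largest called single-gene probe sets in each direction, up to 5 called members of each of 33 lists, and genes called in the difference. Other genes in the text are further members of a counted group or were picked after their values were seen. The 33 lists hold 694 genes, of which 108 were paired; 8 lists had no paired gene. A gene with several probe sets was read from the one with the highest mean. The comparison and the lists were chosen with earlier results of these data known. Sharing of replicate numbers was checked: the deviations of same-numbered arrays at 0 h and 12 h in wild type correlated at -0.10, so the numbers were not taken as pairs. Those of the 24 h arrays of wild type and rcf1-1 correlated at 0.691, and these arrays entered the spread as independent. Alternatives were a replicate block, array weights, fewer arrays, stricter thresholds, no variance trend, a filter on low levels, renewed quantile normalization, and each array left out in turn.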

Additional observations from a re-analysis of the deposited data

Results flagged for a closer look

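The test of the difference between the wild-type and rcf1-1 responses at 12 h marked 11 single-gene probe sets, all at an adjusted p under 0.05 in limma. The wild-type response minus the rcf1-1 response was 2.98 for AT4G21870, 2.92 for AT4G01130, 2.52 for AT5G17460, 2.48 for AT5G44680, 1.96 for AT1G64890 and 1.94 for AT3G15720. It was -4.75 for AT2G32020, -3.82 for AT2G41730, -3.58 for AT2G04050, -3.13 for AT5G15950 and -1.79 for AT4G22470. The genes reach these values in different ways. AT5G44680 read 7.52 and 7.45 at 12 h in wild type, against 8.27 and 7.71 at 0 h, and fell by 2.99 in rcf1-1. AT3G15720 rose by 1.12 in wild type and fell by 0.81 in rcf1-1. AT2G04050 read 3.61 and 3.14 at 12 h in wild type, against 2.73 and 3.04 at 0 h, and rose by 4.07 in rcf1-1. AT4G22470 stayed near 3 on all 4 wild-type arrays, between 2.66 and 3.02, and rose by 1.77 in rcf1-1. With each of the 8 compared arrays left out in turn, between 4 and 9 probe sets were called in place of 20. AT5G15950 kept its call in all 8 of these fits, AT2G32020 and AT2G41730 in 7, AT2G04050 in 4, and AT3G15720, AT4G21870 and AT5G17460 in 1. AT1G64890, AT4G01130, AT4G22470 and AT5G44680 lost it in each of the 8.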

How the results depend on the processing

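The count of 2724 called in wild type moved with the arrays that estimate the spread, to 6510 with the 0 h and 12 h arrays of both genotypes, 6498 without the 24 h replicate 2 arrays, 5232 with array weights and 5003 with the 4 wild-type arrays alone. It fell to 1437 at an adjusted p under 0.01, to 511 with a tested change of 2-fold, where 69.7% were higher, against 50.6% in the main fit, and to between 1267 and 1620 with any 1 of the 4 wild-type arrays left out, a fit with fewer arrays. For rcf1-1 (2784) the same settings gave 6725, 6713, 8043, 8550, 1594 and 533, and 1335 to 1430 with 1 array left out. For the difference (20) they gave 685, 682, 584, 685, 7 and 6, and 4 to 9. Causes were not tested. A replicate block gave 2812, 2890 and 16 calls, and a crossed replicate block, chosen after seeing the data because of the negative correlation of deviations, gave 2887 in wild type. The filter, the fit without a trend and the second quantile normalization kept all 3 counts within 1.5 times, but EXPA4 and PUB19 lost their call without the trend and TBL35, petL and WRKY47 with the second normalization. AT4G21870 and AT4G22470, not called in wild type, each changed sign in 2 of the 4 fits with 1 wild-type array left out, with ranges of -0.29 to 0.35 and -0.20 to 0.16. In the fit on the 0 h and 12 h arrays, 2891 of all 22746 probe sets were higher and 3619 were lower. The called members there became 10 lower of 13 for nuclear photosynthesis, 7 higher for ribosome biogenesis and 3 higher for gibberellin. Chlorophyll and heat shock had 1 higher and 2 lower each, starch had 1 in each direction, and auxin and senescence had 2 lower each. A comparison of promoter motifs was not run, since no promoter sequences were used here.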

Other observations

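Of the called probe sets, 624 of the higher and 645 of the lower ones have no single gene in the annotation, so 1269 of the 2724 calls stay unnamed. Among 147 genes with at least 2 single-gene probe sets, 21 had a call, 3 had every probe set called in the same direction and 0 had probe sets called in opposite directions. Of 26 genes with a CYP symbol and a probe set, the cytochrome P450 gene CYP71B26 rose by 1.67 and CYP71B24 fell by 0.94. That is 3.85% each way, below the 5.61% and 5.24% of all named genes, so the count is no result about the group. The 26 were grouped by symbol and include CYP59 and CYP71, which are not cytochrome P450 genes. CYP71B24 read under 4.03, the lowest array median, on every 0 h and 12 h wild-type array. Among 6 WRKY factors, WRKY6 rose by 1.56 and WRKY47 fell by 0.79, to readings under 4.03 on both 12 h arrays. Of 9 genes with a PUB symbol and a probe set, the ubiquitin ligases PUB19 and PUB22 rose by 1.83 and 1.21 (22.2%). PUB26 fell by 2.07 on the log2 scale (11.1%), to readings under 4.03 on both 12 h arrays. The shares of all named genes were 5.61% higher and 5.24% lower. All genes in these family counts were picked after their values were seen.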
